A study of Rattus norvegicus with 36 samples.

Results

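The comparison described here sets livers of rats given 48.5 mg/kg PBDE47 against livers of rats given 4.85 mg/kg, the next lower dose. Its arrays are those with the 2 treatment labels: 6 arrays at each dose, 12 of the 36 arrays of the series, with all 31042 probe sets that are not array controls and no use of the vehicle arrays in the test. PBDE47 is 2,2',4,4'-tetrabromodiphenyl ether, a brominated flame retardant. Male Harlan Sprague Dawley rats, 7 weeks old at the start, received it in corn oil by gavage on 5 days in a row, and the left lobe of the liver was taken 1 day after the last dose. The other groups held 6 arrays each and received corn oil alone (vehicle), 0.0485, 0.485 or 485 mg/kg on the same schedule. All groups, vehicle included, shared the strain, sex, diet, corn oil and gavage. The comparison asks which transcripts differ between neighbouring doses, a contrast that the comparisons of each dose with vehicle in the study's design leave out.

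Hepatocytes clear foreign, fat-soluble chemicals with enzymes whose genes are switched on by receptors for such chemicals. The nuclear receptors CAR and PXR induce CYP2B and CYP3A cytochromes P450, conjugating enzymes and efflux pumps. The aryl hydrocarbon receptor (AhR) induces Cyp1a1, and the transcription factor NRF2 induces genes of glutathione use and quinone reduction through the antioxidant response element. The liver is also the main site of the urea cycle and of the breakdown of most amino acids, and these enzymes are zoned along the path of blood through the lobule.

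Each value is a log2 level from the authors' RMA processing, so a difference of 1 is a doubling. A probe set was called when its adjusted p in limma lay under 0.05. No detection call was made: array medians lay between 5.31 and 5.38 over all 36 arrays, so folds from groups at or below that level are approximate. Correlations between arrays of a group ran from 0.9903 to 0.9967. One array of the comparison stood apart, 4.85 mg/kg replicate 6. Its mean correlation with the rest of its group was 0.99063, against 0.99413 to 0.99451 for the others. Interferon-response and other immune genes were among those lowest on it (log2 deviations from the mean of the other 5 arrays of -2.235 for Rtp4 and -1.932 for Usp18). Usp18 was also low on replicate 5 of that dose, at 5.79 against 5.61 on replicate 6. Genes highest on replicate 6 by the same measure included Spetex2l1 (2.097) and Prrc2c (1.953). RNA quality, read as the 3' minus the 5' level of control transcripts, shifted by -0.04 for GAPDH (exact permutation p = 0.320, two-sided), 0.0097 for beta-actin (p = 0.885) and 0.0013 for hexokinase (p = 0.989) from the lower to the higher dose. Array replicates are numbered in the labels with no further source, so the p-values measure the spread between these samples. In whole liver, fewer cells of a type and less RNA per cell cannot be told apart.

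Livers at 48.5 mg/kg had higher transcript levels than livers at 4.85 mg/kg for 13 of 28 measured target genes of CAR and PXR and 12 of 30 NRF2 and glutathione genes, and lower levels for 7 of 30 urea cycle and amino acid genes. Cyp1a1 stood 4.65-fold higher, the efflux pump gene Abcc3 4.61-fold, the carboxylesterase gene Ces2c 3.57-fold and the probe set shared by Cyp2b1 and Cyp2b2 2.42-fold. Oat, which encodes ornithine aminotransferase, stood 2.06-fold lower. In all, 171 of 31042 probe sets were called (0.551%), 128 higher at 48.5 mg/kg (0.412%) and 43 lower (0.139%). After the arrays were quantile normalized again the split was 117 higher and 65 lower. The called probe sets named 97 genes that rose and 35 that fell. With each gene represented by its brightest probe set, 112 of 14217 genes were called (0.788%), 82 higher (0.577%) and 30 lower (0.211%). Most calls were of modest size: the median absolute log2 change was 0.54 among those higher and 0.47 among those lower, and 13 probe sets rose and 2 fell by at least 2-fold.

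**Figure D1:**
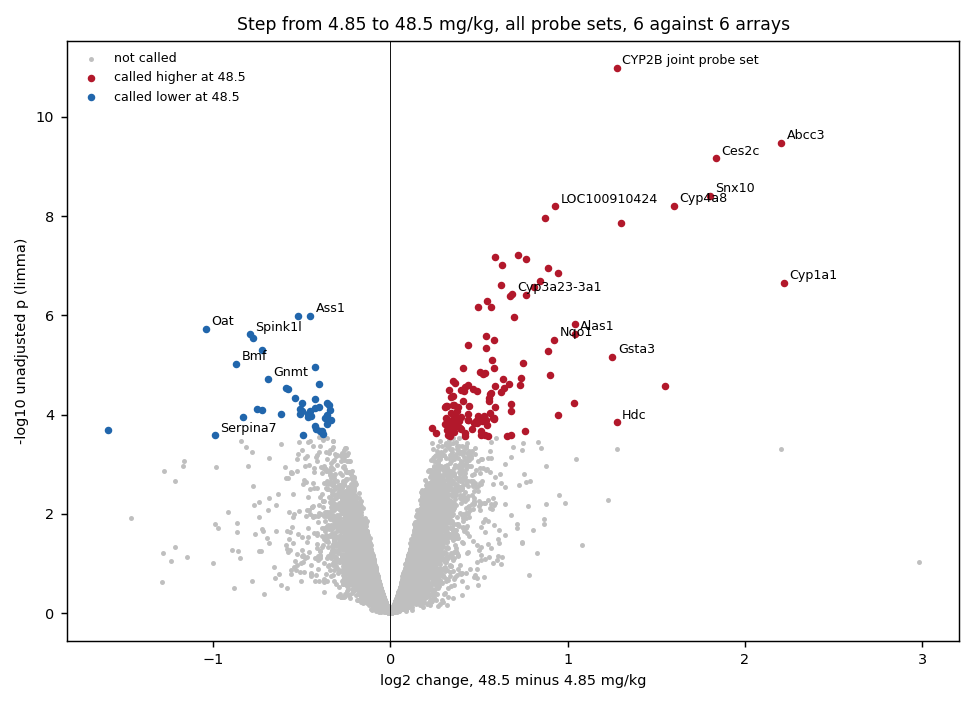
Each point is 1 of 31042 probe sets, with the log2 change from 4.85 to 48.5 mg/kg on the x axis and -log10 of the unadjusted limma p on the y axis (6 against 6 arrays); red points are called higher and blue points called lower. The red side holds 128 points and the blue side 43, and drug metabolism genes lie at the upper right.

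The ranges of the 6 and 6 arrays did not overlap for 447 probe sets (1.44%), 296 of them higher at 48.5 mg/kg and 151 lower. Counted by gene, 308 had such ranges (2.17%). Of the called probe sets, 106 of the 128 higher and 32 of the 43 lower had such separate ranges. Without 4.85 mg/kg replicate 6 there were 196 calls, 126 higher and 70 lower, of which 146 were among the 171. The total fell by over 1.5 times without any one of 6 arrays: to 107, 86, 113 and 95 without 4.85 mg/kg replicates 1, 3, 4 and 5, and to 102 and 86 without 48.5 mg/kg replicates 5 and 6. Of 52 called genes named by a rule given with the processing, 30 stayed called with each array left out in turn. The other 22 lost the call without at least 1 array. Leaving out 4.85 mg/kg replicates 1 to 6 in turn lost 14, 14, 21, 11, 19 and 3 of the 52, and leaving out 48.5 mg/kg replicates 1 to 6 lost 12, 14, 5, 9, 17 and 19. Largest adjusted p-values with an array left out, among genes that lost the call, ran from 0.0567 for Hal, lost without 4.85 mg/kg replicate 3 alone, to 0.126 for Srxn1.

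Promoters of 4 genes that rose are shown here because they hold a short sequence bound by one of the receptors or factors above. They are the 4 largest rises with a match among the panel of genes named with the processing. Snx10, Rell1 and Cers6, outside that panel, also hold GCGTG, and Cyp3a23-3a1 holds AGGTCA. Each is the RefSeq window (GRCr8 assembly) from 250 bases before the annotated start to 50 after it, printed 5' to 3' on the gene's strand, with matches in capitals. Gsta3 lies at chr9:31154739-31155038 on the plus strand. Alas1 lies at chr8:115768593-115768892, Por at chr12:26635760-26636059 and Nqo1 at chr19:52220218-52220517, all 3 on the minus strand.
Gsta3: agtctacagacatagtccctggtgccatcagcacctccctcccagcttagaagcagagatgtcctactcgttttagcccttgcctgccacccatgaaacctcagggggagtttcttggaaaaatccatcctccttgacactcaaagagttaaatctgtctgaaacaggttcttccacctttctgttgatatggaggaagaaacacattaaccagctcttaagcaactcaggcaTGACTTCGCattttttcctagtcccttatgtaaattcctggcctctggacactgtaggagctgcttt
Alas1: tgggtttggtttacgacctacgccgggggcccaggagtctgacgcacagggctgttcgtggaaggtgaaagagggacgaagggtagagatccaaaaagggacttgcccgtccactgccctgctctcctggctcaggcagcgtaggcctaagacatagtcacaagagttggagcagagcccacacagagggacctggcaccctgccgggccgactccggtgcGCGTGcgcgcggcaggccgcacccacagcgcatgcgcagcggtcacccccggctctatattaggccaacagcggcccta
Por: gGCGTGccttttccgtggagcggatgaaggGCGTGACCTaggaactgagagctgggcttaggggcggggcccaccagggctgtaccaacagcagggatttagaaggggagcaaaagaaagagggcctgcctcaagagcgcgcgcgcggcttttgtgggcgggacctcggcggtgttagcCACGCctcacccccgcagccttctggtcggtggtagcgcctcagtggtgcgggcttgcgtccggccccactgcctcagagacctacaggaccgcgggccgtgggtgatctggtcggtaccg
Nqo1: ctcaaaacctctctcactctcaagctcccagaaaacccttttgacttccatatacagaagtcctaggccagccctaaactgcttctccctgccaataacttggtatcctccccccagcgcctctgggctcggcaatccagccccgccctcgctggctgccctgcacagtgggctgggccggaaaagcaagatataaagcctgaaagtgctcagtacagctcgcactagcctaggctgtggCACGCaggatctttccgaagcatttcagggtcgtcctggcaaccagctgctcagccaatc

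Motifs searched on both strands were GCGTG, the core of the AhR response element, TGACNNNGC, the core of the antioxidant response element, and AGGTCA, the hexamer bound by many nuclear receptors. In Gsta3, a glutathione S-transferase gene, TGACNNNGC begins 17 bases before the start. In Alas1, the first enzyme of heme synthesis, GCGTG begins 29 bases before the start. Por, the reductase that supplies electrons to cytochromes P450, has GCGTG at 249 and 220 bases and its reverse complement at 71 bases before the start, and the reverse complement of AGGTCA at 217 bases overlaps the match at 220. In Nqo1, the quinone reductase, the reverse complement of GCGTG begins 10 bases before the start. Among all 33469 promoters of the table, 29.7% hold GCGTG, 12.1% TGACNNNGC and 16.2% AGGTCA. Of the 20 genes looked up, 16 were in the table, and 6, 1 and 2 of these held GCGTG, TGACNNNGC and AGGTCA. Cyp1a1, Abcc3, Zdhhc2 and the genes of the CYP2B joint probe set were absent from it, so their promoters were not searched. A match describes the letters of this window and is not a measured binding site.

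The receptor targets of CAR and PXR formed the largest group of rises. Of 28 measured genes on this list, 13 rose and 0 fell, against 0.577% and 0.211% of all genes, and the median log2 change was 0.41 against 0.0014 over all genes. The mean level of the list was 9.84 to 10.10 on the arrays at 4.85 mg/kg and 10.39 to 10.62 at 48.5 mg/kg, with no overlap. Without 1 array or another, 11 to 13 of the 28 were called.

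Among the cytochromes P450, the joint probe set of Cyp2b1 and Cyp2b2 on the array, the phenobarbital-inducible forms, read 12.78 to 13.13 (median 12.98) at 4.85 mg/kg and 14.18 to 14.32 (median 14.25) at 48.5 mg/kg. Every array of the higher dose lay above every array of the lower dose. The log2 change was 1.28 ± 0.07 (SE, n = 6 per group, limma adjusted p = 3.24e-07). Cyp3a23-3a1, a PXR-inducible steroid and drug hydroxylase, read 13.18 to 13.66 (median 13.41) and then 14.06 to 14.22 (median 14.08). Its ranges were also apart, with a change of 0.69 ± 0.08 (adjusted p = 0.000603). Cyp3a9 read 8.75 to 10.07 (median 9.91) and 9.63 to 11.31 (median 10.53), ranges that overlapped, and did not pass the test (0.71 ± 0.26, adjusted p = 0.295). Cyp2c6v1 stood at 14.16 to 14.37 and 14.32 to 14.46 and did not pass (0.15 ± 0.05, adjusted p = 0.280). Its values, and those of Cyp3a23-3a1 at 48.5 mg/kg, lay near the bright end of the scale, where array maxima were 15.02 to 15.07. Whether these probe sets were saturated was not tested, so their changes may be too small. The list's other P450 genes, none of them called, lay between -0.17 for Cyp2a2 and 0.16 for Cyp2a1.

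The transporter gene Abcc3, whose product pumps conjugated compounds from the hepatocyte into blood, read 5.78 to 6.72 (median 6.42) at 4.85 mg/kg and 8.22 to 8.77 (median 8.53) at 48.5 mg/kg. The gap between the ranges exceeded the width of either. Its log2 change was 2.20 ± 0.15 (adjusted p = 5.19e-06). Abcc2, the pump into bile, read 10.81 to 10.97 and 11.09 to 11.51 and rose by 0.44 ± 0.07 (adjusted p = 0.0133). Slc22a8, an uptake transporter of organic anions, read 10.50 to 10.97 and then 10.28 to 10.50 and fell by 0.38 (adjusted p = 0.0428), a call lost without any array but 4.85 mg/kg replicate 6. Of 18 measured drug transporter genes, 2 rose and 1 fell, against 0.577% and 0.211% of all genes. The median log2 change of the list was -0.06.

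Among the hydrolases and dehydrogenases, Ces2c, a carboxylesterase, read 8.06 to 8.95 (median 8.36) and 10.08 to 10.50 (median 10.19). All 6 arrays at the higher dose lay at least 1 log2 unit above the highest of the lower dose. The change was 1.84 ± 0.14 (adjusted p = 7.09e-06). Aldh1a1, a retinaldehyde dehydrogenase, rose by 0.76 ± 0.09 (adjusted p = 0.000603), from 12.17 to 12.50 across arrays to 12.86 to 13.34. Ephx1, microsomal epoxide hydrolase, rose by 0.38 ± 0.07 (adjusted p = 0.0235). Akr7a3, an aldo-keto reductase, rose by 0.56 ± 0.11 (adjusted p = 0.0275). Of 24 genes of these families these 4 rose (0.577% of all genes did) and 0 fell, with a median change of 0.02. Without 4.85 mg/kg replicate 3 or replicate 5, 2 were called, Ces2c and Aldh1a1. Of 19 genes on the list of glucuronidation and sulfation, 1 was called (5.26%, against 0.788% of all genes). That was Ugt2b1, a glucuronosyltransferase, which read 12.94 to 13.49 and then 13.64 to 13.89, a change of 0.49 ± 0.08 (adjusted p = 0.0150). Sult1c2a, a sulfotransferase gene outside that list, read 10.96 to 11.43 and then 10.37 to 10.91 and was called lower (limma adjusted p = 0.0484). That call was lost without any one of 10 arrays.

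Of 15 measured genes of heme synthesis, heme breakdown and P450 reduction 3 rose and 0 fell, against 0.577% and 0.211% of all genes, and the median change was 0.02. Alas1 read 10.79 to 11.45 and 11.57 to 12.61, ranges that were apart, and rose by 1.04 ± 0.14 (adjusted p = 0.00243). Por read 9.05 to 9.87 and 9.85 to 10.95, with ranges that overlapped at their edges, and rose by 1.04 ± 0.19 (adjusted p = 0.0222). Blvrb, a biliverdin reductase, rose by 0.32 ± 0.07 (adjusted p = 0.0420). Only Alas1 stayed called without any one of 4.85 mg/kg replicates 1, 3 and 5 and 48.5 mg/kg replicates 2, 5 and 6. Both Por probe sets were called, at 0.95 and 1.04.

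Targets of NRF2 and genes of glutathione use were the second group. Of 30 measured, 12 rose and 0 fell, against 0.577% and 0.211% of all genes. The median log2 change was 0.28, against 0.0014 over all genes. Gsta3 read 7.33 to 8.42 (median 7.93) and 8.57 to 9.58 (median 9.10) and rose by 1.25 ± 0.19 (adjusted p = 0.00529). Nqo1 read 7.46 to 8.16 (median 7.77) and 8.40 to 9.05 (median 8.69) and rose by 0.93 ± 0.13 (adjusted p = 0.00280). Both genes had separate ranges. Gstt3, another glutathione S-transferase, rose by 0.89 ± 0.13 (adjusted p = 0.00407), with 1 array of the lower dose (11.15, replicate 4) far above the other 5. Gsr, glutathione reductase, rose by 0.63 ± 0.11 (adjusted p = 0.0152), and Srxn1, sulfiredoxin, by 0.68 ± 0.14 (adjusted p = 0.0484). Hmox1, the stress-inducible heme oxygenase, read 8.38 to 8.86 and 8.35 to 8.73 and did not pass (-0.06 ± 0.09). With 1 array left out, 7 to 11 of the 30 were called, 7 of them without 4.85 mg/kg replicate 3 or replicate 5. The other probe sets of Srxn1 stood at 0.02 and 0.59 and were not called. Of the 12 called genes, 8 also stood on another list (5 of them, Gsta3, Gstm1, Gstm3, Ephx1 and Abcc2, on that of CAR and PXR), so the counts are not separate evidence.

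Cyp1a1, the marker gene of AhR activity, read 4.94 to 5.65 (median 5.19) at 4.85 mg/kg and 6.23 to 8.24 (median 7.56) at 48.5 mg/kg. The ranges were apart, and the arrays of the higher dose were spread over 2.01 log2 units. Its log2 change was 2.22 ± 0.25 (adjusted p = 0.000427). At 4.85 mg/kg 5 of its 6 arrays lay below 5.31, the lowest array median, so the 4.65-fold is approximate. Cyp1a2, the other P450 of this pathway, read 13.15 to 13.43 and 13.32 to 13.59, and its change of 0.17 ± 0.07 did not pass (adjusted p = 0.325). Of 9 measured AhR genes, Cyp1a1 and Nqo1 rose and 0 fell, against 0.577% and 0.211% of all genes. Cyp1b1, Aldh3a1, Ahrr and Tiparp, further targets, lay between -0.08 and 0.13. Of the 9 genes on the list, 4 had means under 5.31, which limits what small changes there can show.

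**Figure D2:**
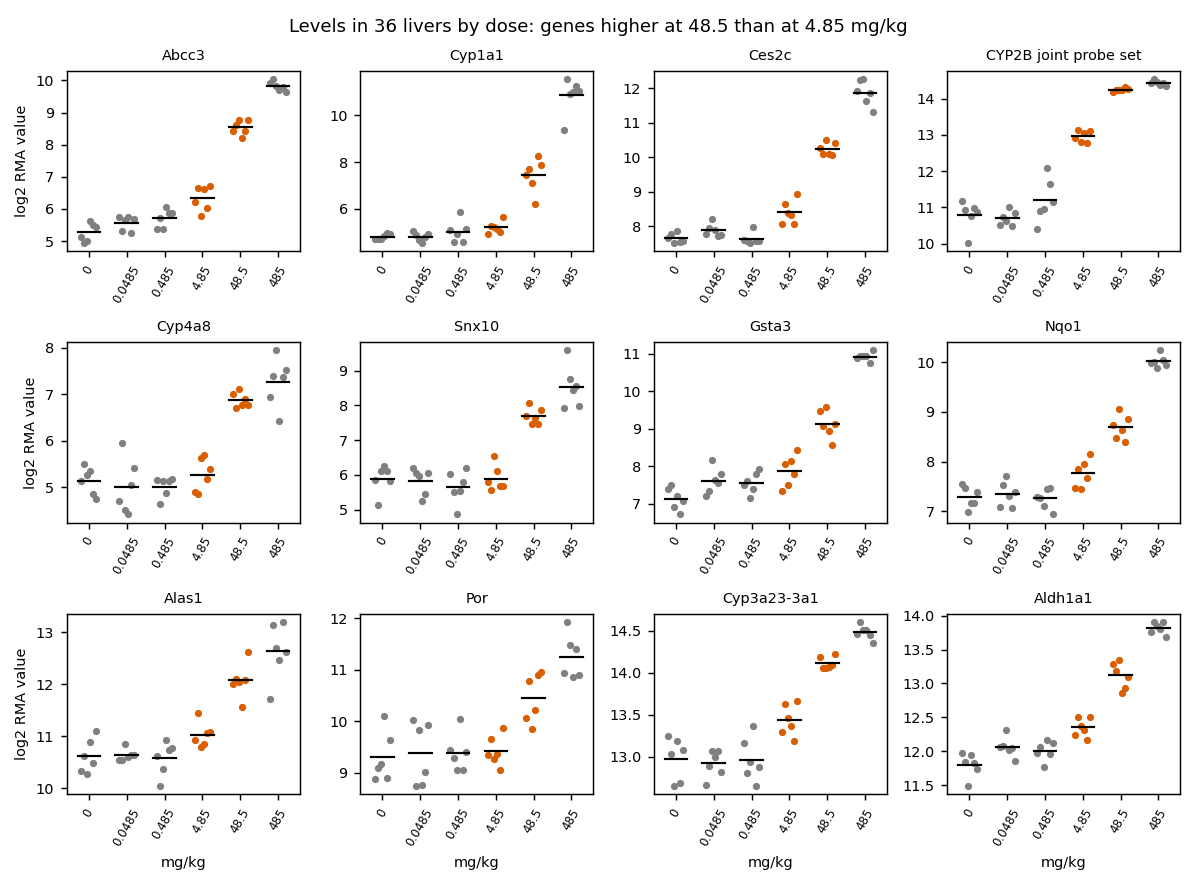
Log2 RMA values of 36 livers (y axis) by dose in mg/kg (x axis, 0 is vehicle) for 12 genes or probe sets that rose; points are arrays, bars are group means, and the 2 compared doses are orange. For Abcc3, Cyp1a1, Ces2c and the CYP2B joint probe set, the 6 orange points at 48.5 mg/kg lie above the 6 at 4.85 mg/kg.

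Rises outside drug metabolism were led by Snx10, a sorting nexin of endosomes. It read 5.56 to 6.54 (median 5.75) and 7.46 to 8.06 (median 7.67), a change of 1.80 ± 0.15 (adjusted p = 3.04e-05), and its other probe set was called at 1.30. Cyp4a8, of a P450 family that hydroxylates fatty acids, read 4.85 to 5.70 and 6.70 to 7.10 and rose by 1.60 ± 0.14 (adjusted p = 3.32e-05). Part of its lower group lay under the array medians. Both of its probe sets were called, at 0.75 and 1.60. Cers6, a ceramide synthase, rose by 0.90 ± 0.15 (adjusted p = 0.00979), Zdhhc2, a palmitoyltransferase, by 0.89 ± 0.10 (adjusted p = 0.000270), and Mnd1, known from meiotic recombination, by 0.84 ± 0.09 (adjusted p = 0.000415). Rell1 rose by 1.04 ± 0.14 and LOC100910424 by 0.93 ± 0.08. Mdm2, the ubiquitin ligase of p53, rose by 0.53 ± 0.08 (adjusted p = 0.00948) as the only called gene of 17 on a list of p53 targets and growth arrest, while Cdkn1a stood at a change of -0.01. Tsku, a secreted leucine-rich protein outside the naming rule and chosen after its values were seen, rose by 1.55 ± 0.26 (adjusted p = 0.0134).

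Hdc, which encodes the enzyme that makes histamine and is also a mast cell and basophil marker, read 6.26 to 7.61 (median 6.85) and 7.70 to 9.02 (median 8.05). It rose by 1.28 ± 0.25 (adjusted p = 0.0333), a call lost without any one of 7 arrays. The other 9 neutrophil and mast cell markers, Cpa3, Kit and Mcpt8 among them, lay between -0.14 and 0.06, and 7 of the 10 had means under 5.31. Across the 6 groups Hdc had no steady order with dose: mean ± SD was 6.51 ± 0.63 in vehicle, 7.66 ± 0.52 at 0.0485, 7.09 ± 0.56 at 0.485, 6.90 ± 0.57 at 4.85, 8.18 ± 0.49 at 48.5 and 7.74 ± 0.44 at 485 mg/kg.

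Amino acid catabolism held the largest group of falls. Of 30 measured genes of the urea cycle and amino acid breakdown, 7 fell and 0 rose, against 0.211% and 0.577% of all genes, and the median log2 change was -0.15. The mean level of the list was 10.92 to 11.03 at 4.85 mg/kg and 10.64 to 10.84 at 48.5 mg/kg, with no overlap. The number that fell was 4 to 7 with 1 array left out, 4 of them without 4.85 mg/kg replicate 3, and 4 in a model of all 36 arrays.

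Oat, which makes glutamate semialdehyde from ornithine, read 10.65 to 11.32 (median 10.84) at 4.85 mg/kg and 9.41 to 10.30 (median 9.83) at 48.5 mg/kg, with separate ranges. Its log2 change was -1.04 ± 0.14 (adjusted p = 0.00199). Ass1, the urea cycle enzyme argininosuccinate synthase, read 12.76 to 12.86 and then 12.23 to 12.52. That is a small change of -0.45 ± 0.06 (adjusted p = 0.00125), yet far wider than the spread within either group. Gnmt, glycine N-methyltransferase, read 11.91 to 12.48 and 11.25 to 11.80 and changed by -0.69 ± 0.11 (adjusted p = 0.0114). Gls2, liver glutaminase, read 10.60 to 11.22 and 10.08 to 10.52 and changed by -0.59 ± 0.10 (adjusted p = 0.0142). In the histidine and proline pathways, Hal, histidine ammonia-lyase, changed by -0.54 ± 0.10 (adjusted p = 0.0186), and Prodh2, which oxidizes hydroxyproline, by -0.50 ± 0.09 (adjusted p = 0.0222). Cth, which makes cysteine from cystathionine, changed by -0.36 ± 0.07 (adjusted p = 0.0352). Arg1, the last enzyme of the urea cycle, stood at a change of 0.03 and Otc at -0.18, and neither was called. Cps1, its first, was not called on its brighter probe set (-0.14) but was on the other, at -0.36 (adjusted p = 0.0287). It is not among the 7. Likewise the dimmer probe sets of Abcb1a, an efflux pump gene (0.66, adjusted p = 0.0486), and Tk1, thymidine kinase (0.34, adjusted p = 0.0430), were called and are not in the counts of their lists.

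Of 11 periportal hepatocyte markers, 3 fell (Gls2, Hal and Ass1, all also on the amino acid list) and 0 rose. Of all genes, 0.211% fell and 0.577% rose. The median log2 change of the markers was -0.28, against 0.0014 over all genes. The mean level of the periportal markers was 10.92 to 11.06 at 4.85 mg/kg and 10.65 to 10.79 at 48.5 mg/kg. Among 10 pericentral markers Oat fell and Gstm1, a glutathione S-transferase gene also on the CAR and PXR list, rose by 0.35 ± 0.06 (adjusted p = 0.0120). The median there was 0.02, and Glul and Cyp2e1, defining markers of that zone, had values of -0.30 and -0.18 and were not called. Of 10 general hepatocyte markers 0 were called, Alb stood at a change of -0.00 and the mean level was 14.07 to 14.16 and 14.04 to 14.14. The part of zonation in these results was not tested.

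Other genes that fell came from several pathways. Serpina7, thyroxine-binding globulin, read 10.15 to 11.05 (median 10.62) and 8.93 to 10.18 (median 9.66), ranges that overlapped slightly, and changed by -0.99 ± 0.21 (adjusted p = 0.0485). That call was lost in 5 other settings and without any one of 9 arrays. Bmf, a BH3-only inducer of apoptosis, read 6.63 to 7.08 and 5.60 to 6.51 and changed by -0.87 ± 0.13 (adjusted p = 0.00683). Spink1l, of the Kazal-type protease inhibitors, changed by -0.79 ± 0.11 (adjusted p = 0.00243), and all 3 probe sets of Spink1 were called lower, at -0.83 to -0.72. These related genes may share signal on the array. Car3, carbonic anhydrase 3, was called on both probe sets, at -0.77 and -0.37. Rprm, a cell cycle arrest gene named after its values were seen, had the largest called fall, -1.59 ± 0.33 (adjusted p = 0.0420), with overlapping ranges of 5.44 to 7.42 and 4.29 to 5.88.

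**Figure D3:**
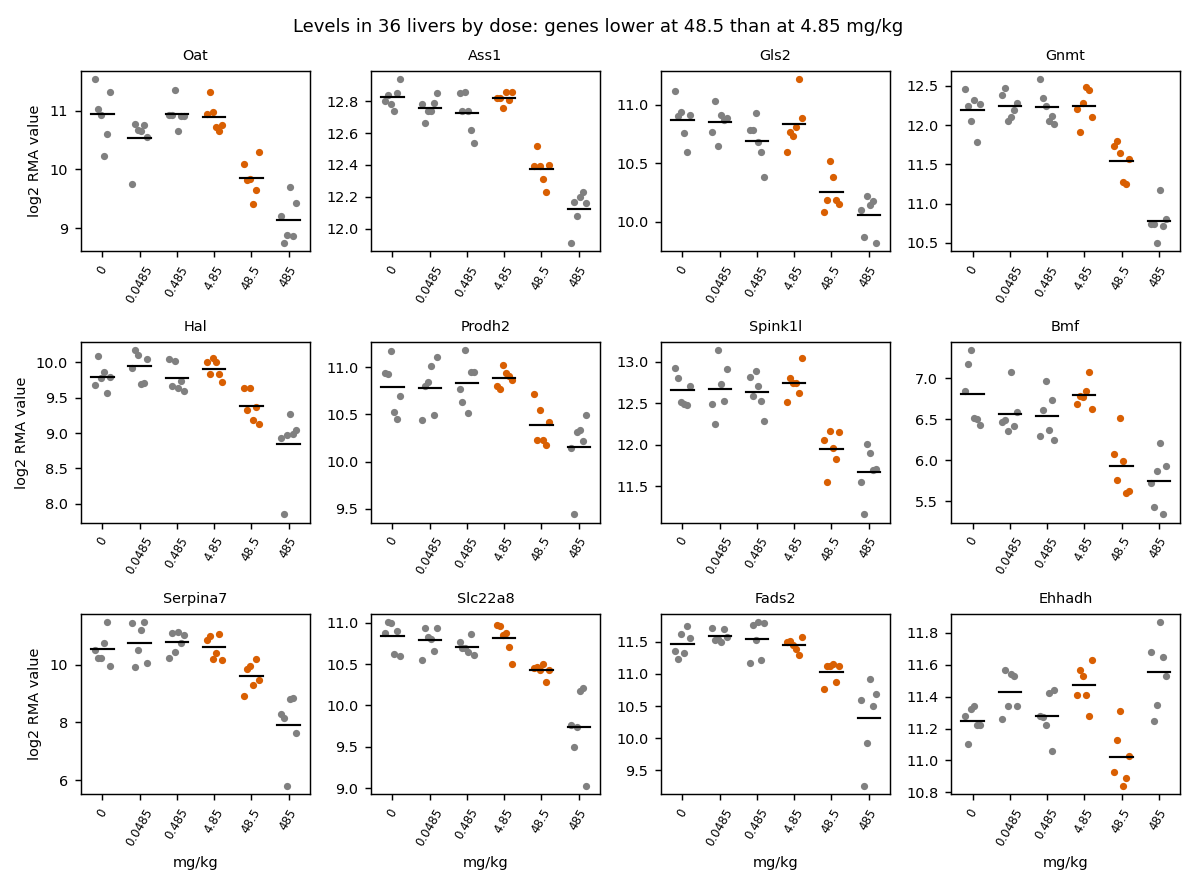
Log2 RMA values of 36 livers (y axis) by dose in mg/kg (x axis, 0 is vehicle) for 12 genes that fell; points are arrays, bars are group means, and the compared doses are orange. Oat, Ass1, Gls2 and Gnmt have separate orange ranges, and Ehhadh stands highest in mean at 485 mg/kg.

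Lipid pathways showed few calls in either direction. Ehhadh, a peroxisomal enzyme of fatty acid oxidation and a PPARA target, read 11.28 to 11.63 (median 11.47) and 10.84 to 11.31 (median 10.98) and changed by -0.45 ± 0.09 (adjusted p = 0.0256). Of 24 measured PPARA and fatty acid oxidation genes, Ehhadh fell and Cyp4a8 rose, and Cyp4a1 (-0.56), Pdk4 (-0.57) and Angptl4 (-0.68) were not called. Among 20 lipogenic genes, Fads2, the delta-6 desaturase, fell by 0.42 (adjusted p = 0.0243) and Me1, malic enzyme, rose by 0.53 ± 0.10 (adjusted p = 0.0287). Without 1 array or another, Ehhadh lost its call in 6 cases, Fads2 in 4 and Me1 in 8. Scd read 8.84 to 10.35 and 8.14 to 9.50 and did not pass (-0.50 ± 0.26, adjusted p = 0.487). Of 20 cholesterol genes and 17 bile acid and sterol export genes 0 were called, which for lists of this size lies near the 0.788% of all genes. Abcg5 and Abcg8, which export sterols together, had values of -0.69 ± 0.21 (adjusted p = 0.180) and -0.74 ± 0.23 (adjusted p = 0.196), and Cyp7a1, the first enzyme of bile acid synthesis, 0.36 ± 0.27 (adjusted p = 0.664).

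In the thyroid hormone list of 14 genes, Serpina7 fell and Me1 rose (14.3%, against 0.788% of all genes). Thrsp (0.31 ± 0.19, adjusted p = 0.571) and Dio1 (-0.04 ± 0.08, adjusted p = 0.896) did not pass. The 23 genes of the growth hormone axis held 0 calls: Cyp2c11, the male-specific P450, stood at 13.78 to 13.99 and 13.85 to 14.01, and Socs2 spread over 5.73 to 8.89 and 5.22 to 7.67 (-0.65 ± 0.48, adjusted p = 0.662). Lox, lysyl oxidase, read 6.44 to 8.66 and 4.91 to 7.17 and did not pass (-0.99 ± 0.37, adjusted p = 0.294). These wide ranges limit what 6 arrays a group can show. Of 22 measured genes for hepatocyte nuclear receptors, 0 were called. Here and in the growth hormone list 0 calls lie near the share over all genes, 0.788%.

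Protein turnover genes had small values of one sign, and several other lists leaned to one sign too. All 25 measured proteasome subunit genes had positive changes, from 0.00 to 0.31, with a median of 0.13, and 1 was called, Psma3 (0.31 ± 0.06, adjusted p = 0.0296), against 7197 of 14217 genes with positive changes overall. A model of all 36 arrays called 4. The subunits share arrays and regulation, so they do not count as separate observations. All 13 heat shock and chaperonin genes were positive too, with a median of 0.14 and 1 call, the small heat shock protein gene Hspb8 (0.42 ± 0.07, adjusted p = 0.0137). The secretory gene Sec23b rose by 0.31 ± 0.06 (adjusted p = 0.0234) as the only call among 24 genes of ER folding and secretion. Respiratory chain (23), acute phase (19), complement and coagulation (24), ATF4 response (22), circadian (16) and cell cycle (29) lists held 0 calls. For lists of this size 0 calls lie near the share over all genes, 0.788%. Positive changes were held by 27 of 29 cell cycle, 20 of 22 ATF4 response and 22 of 24 ER folding and secretion genes. Of the 24 complement and coagulation genes 2 were positive. In the cell cycle list 9 of the 29 genes had means under 5.31, and Mcm6, a replication helicase subunit, stood at 0.79 ± 0.21 (adjusted p = 0.131). Interferon response genes (26) held 0 calls, with a median of 0.14 that became -0.03 without 4.85 mg/kg replicate 6. That array had the lowest list mean of its group, 6.86 against 6.95 to 8.10 for the other 5.

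**Figure D4:**
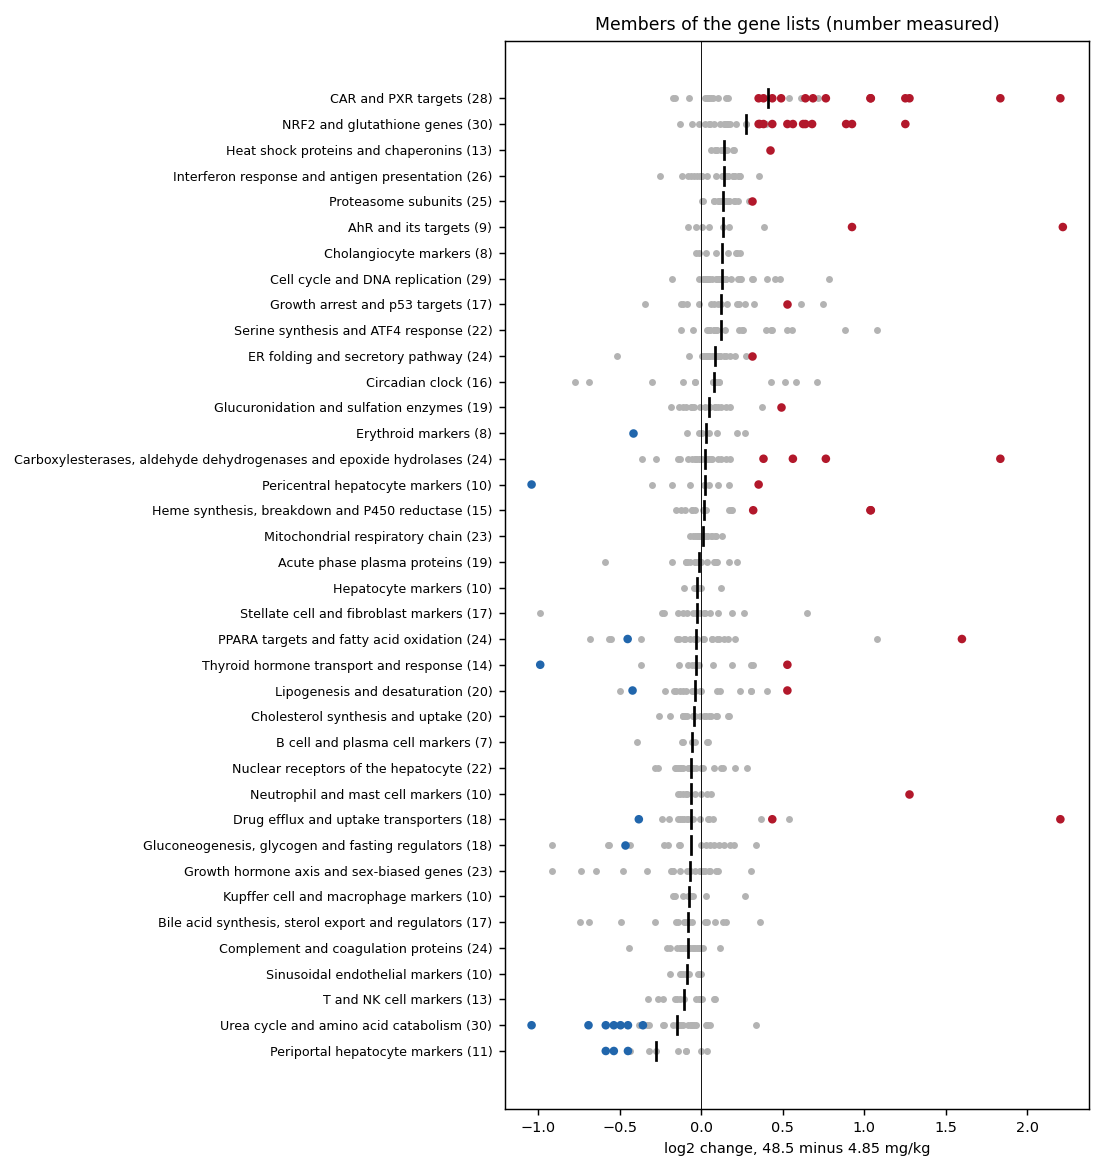
Log2 change from 4.85 to 48.5 mg/kg (x axis) of the measured members of 38 gene lists (y axis, number measured in brackets), ordered by the median (black bar); red points are called higher, blue called lower and grey not called. The CAR and PXR list (13 red of 28) and the NRF2 list (12 red of 30) lie highest, and the amino acid list (7 blue of 30) and the periportal markers (3 blue of 11) lowest.

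Markers of other liver cells gave 0 calls in the lists of cholangiocytes (8), stellate cells and fibroblasts (17), sinusoidal endothelium (10), Kupffer cells and macrophages (10), T and NK cells (13) and B and plasma cells (7). With 0.788% of all genes called, 0 calls in such short lists lie near the overall share. Means lay under 5.31, the lowest array median, for 4 of 8 cholangiocyte, 9 of 13 T and NK cell and 4 of 7 B and plasma cell markers. This limits what the absence of calls in those lists can show. Kupffer cell markers had mean levels of 8.57 to 9.44 at 4.85 mg/kg and 8.61 to 9.34 at 48.5 mg/kg. Endothelial markers had 7.90 to 8.22 and 7.91 to 8.04, with 0 of 10 positive and a median of -0.09. Cd8a, a T cell marker, read 5.42 to 5.81 and 5.14 to 5.36, ranges that were apart but close to the array medians, and did not pass (-0.33 ± 0.07, adjusted p = 0.0676). Of 8 erythroid markers, 6 had means under 5.31. Among the 8, Car1, the carbonic anhydrase of red cells, fell by 0.42 (adjusted p = 0.0405) at a level of 3.99 to 4.71, below the array medians. Hbb and Alas2 had positive values that were not called.

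The dose step described here was next set against its neighbours of the same factor, 0.485 to 4.85 and 48.5 to 485 mg/kg, in a model of the 24 arrays of those 4 groups. Neighbouring steps share a group of arrays, so each difference of steps was tested directly. Against the step below, 1 of 31042 probe sets was called (0.00322%, 2565 at an unadjusted p under 0.05). It was Abcc3, whose step here of 2.20 ± 0.15 (24-array model) exceeded its lower step of 0.63 ± 0.15 by 1.58 ± 0.25 (adjusted p = 0.0456). Calls against the step below numbered 0 without any one of 16 of the 24 arrays and 3 without 48.5 mg/kg replicate 3. Those 16 were replicates 2, 4 and 6 at 0.485, replicates 1, 3 and 5 at 4.85, replicates 1, 2, 5 and 6 at 48.5 and all 6 at 485 mg/kg. The CYP2B joint probe set had log2 steps of 1.77, 1.28 and 0.19 (each ± 0.16) from 0.485 up to 485 mg/kg, and the differences between them, read near the bright end of the scale, were not called (adjusted p = 0.675 against the step below and 0.232 against the step above). For Cyp1a1 the steps were 0.17, 2.22 and 3.42 (each ± 0.30), also with no called difference (adjusted p = 0.270 and 0.552).

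Against the step above, 7 probe sets were called (0.0226%), 1 with a higher value in the step described here and 6 with a lower one. Mblac1, a gene of the metallo-beta-lactamase fold, was the one higher: it rose by 0.40 ± 0.07 from 4.85 to 48.5 mg/kg, and its next step was -0.31 ± 0.07, a difference of 0.71 ± 0.12 (adjusted p = 0.0242). Ehhadh had steps of -0.45 and 0.53 (each ± 0.10), a difference of -0.98 ± 0.16 (adjusted p = 0.0189). Ttc39a stood at 3.75 to 4.27 and 4.02 to 4.84 here, below the array medians, with a step of 0.40 ± 0.12 that was smaller than its next, 1.78 ± 0.12, by 1.37 (adjusted p = 0.0177). Hmox1 (-0.06 and then 0.85) and Slc48a1, a heme transporter gene (0.00 and then 0.61), differed by -0.91 ± 0.16 (adjusted p = 0.0240) and -0.61 ± 0.10 (adjusted p = 0.0189). Calls against the step above numbered 0 without 48.5 mg/kg replicate 4 or replicate 6, 4 and 3 without replicates 1 and 5 of that dose, and 14 without 485 mg/kg replicate 5. No probe set was called with a higher value in the step described here without 48.5 mg/kg replicates 2, 3, 4, 5 or 6 or 485 mg/kg replicate 3, so the call of Mblac1 rests on each of these.

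**Figure D5:**
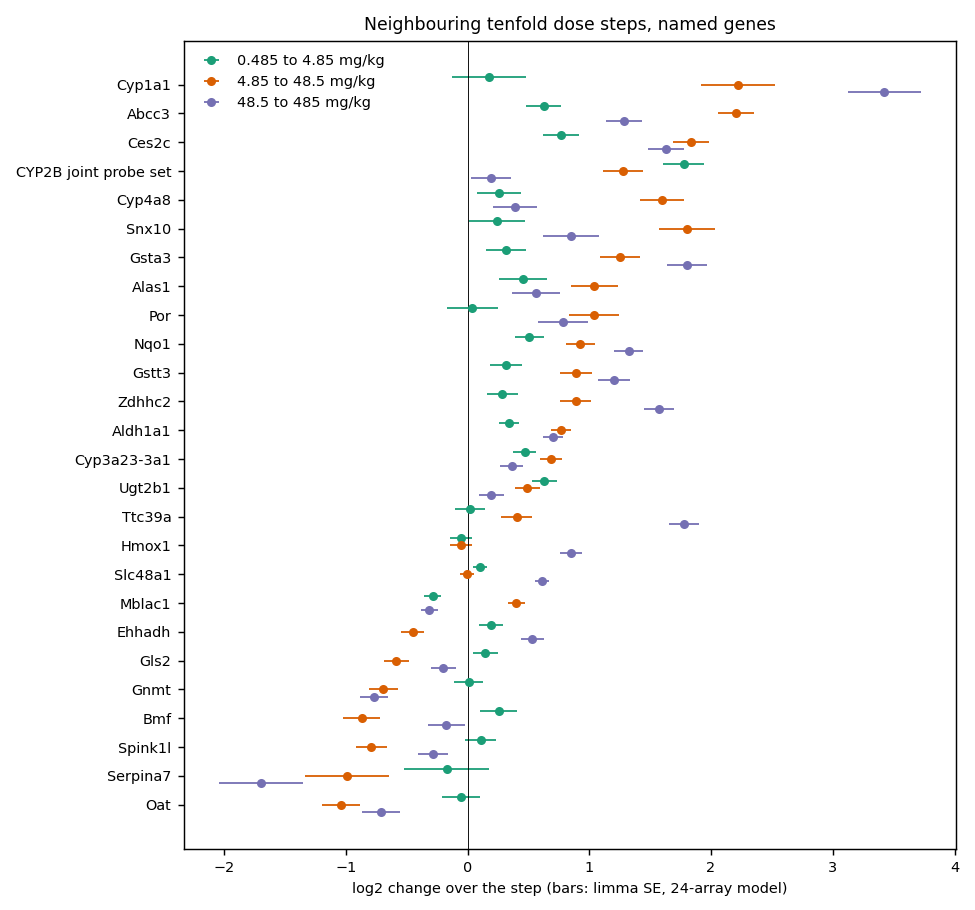
Log2 change over 3 neighbouring dose steps (x axis) for the named genes or probe sets shown (y axis); points are limma estimates from the 24-array model and bars are SE. Abcc3 has its largest value in the step from 4.85 to 48.5 mg/kg (2.20), while Hmox1 and Ttc39a have theirs in the step from 48.5 to 485 mg/kg (0.85 and 1.78).

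The vehicle and 485 mg/kg arrays took no part in the comparison of 48.5 with 4.85 mg/kg, so they give each called probe set a second reading. Between 485 mg/kg and vehicle 3920 probe sets were called (12.6%), 2042 higher (6.58%) and 1878 lower (6.05%). Of the 128 probe sets that rose from 4.85 to 48.5 mg/kg, 112 were called higher at 485 mg/kg than in vehicle, which is 87.5% of the first list and 5.48% of the second, and 0 were called lower. Of the 43 that fell, 36 were called lower, which is 83.7% and 1.92%. Ehhadh, which fell in the step, was called higher there (0.31 ± 0.09, adjusted p = 0.0389). The CYP2B joint probe set was higher at 485 mg/kg than in vehicle by 3.65 ± 0.14 (adjusted p = 4.40e-10), Cyp1a1 by 6.03 ± 0.26 (adjusted p = 1.50e-09) and Oat lower, at -1.80 ± 0.21 (adjusted p = 3.33e-05). Not called between 485 mg/kg and vehicle were 16 of the rises and 6 of the falls, among them Mat2a, Tnfrsf12a, Coq10b, Rcan1, Nip7, Nmnat1, Mblac1 and Gucd1. Rcan1, a calcineurin inhibitor, rose by 0.56 ± 0.10 from 4.85 to 48.5 mg/kg (adjusted p = 0.0204). Between 485 mg/kg and vehicle it stood at -0.17 ± 0.20 (adjusted p = 0.663). Its means were 11.996 in vehicle, 11.465 at 4.85 and 12.022 at 48.5 mg/kg, so the 4.85 mg/kg group was the low one. Tnfrsf12a had the same pattern, with means of 6.665, 6.083 and 6.599. Coq10b (9.287, 8.818 and 9.548) and Nmnat1 (6.644, 6.549 and 6.926) had means below vehicle at 4.85 and above it at 48.5 mg/kg. Mat2a, a methionine adenosyltransferase, rose by 0.55 ± 0.12 (adjusted p = 0.0489), with means of 8.22 in vehicle, 7.84 at 4.85, 8.39 at 48.5 and 8.35 at 485 mg/kg. Its other probe sets stood at -0.06 and 0.26 and were not called.

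Levels of some of these genes follow for vehicle, 4.85, 48.5 and 485 mg/kg, as a description. The CYP2B joint probe set had means ± SD of 10.79 ± 0.41 in vehicle, 12.97 ± 0.16 at 4.85, 14.25 ± 0.05 at 48.5 and 14.44 ± 0.07 at 485 mg/kg. The highest value on each array was 15.02 to 15.07, and 13 probe sets had a higher mean at 485 mg/kg. Whether the CYP2B probe set was saturated at the upper doses was not tested, so its fold and its steps to 48.5 and 485 mg/kg may be too small. Cyp1a1 stood at 4.82 ± 0.11, 5.21 ± 0.25, 7.43 ± 0.70 and 10.85 ± 0.77 in the same groups. Cyp4a8 stood at 5.14 ± 0.29, 5.27 ± 0.36, 6.87 ± 0.16 and 7.26 ± 0.52. Among the falls, Oat stood at 10.94 ± 0.48 in vehicle and 10.89 ± 0.24 at 4.85 mg/kg, then 9.85 ± 0.32 and 9.14 ± 0.37. Gnmt stood at 12.19 ± 0.23, 12.24 ± 0.21, 11.54 ± 0.23 and 10.78 ± 0.22. Stmn3, a stathmin family gene, stood at 6.18 ± 0.20, 6.25 ± 0.19, 5.78 ± 0.14 and 5.77 ± 0.13, so its mean at 485 mg/kg lay within the spread of the 48.5 mg/kg group.

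Where a called gene had several probe sets, they were compared. Of 132 genes with a called probe set, 47 had more than 1 on the array, 15 of these had more than 1 called, and 0 had calls in opposite directions. App, the amyloid precursor protein gene, was called on 3 of 3 probe sets, at 0.72 to 0.94, and Vav2, a guanine nucleotide exchange factor, on 3 of 4, with changes from 0.51 to 0.81. In 5 genes with 1 called probe set, another probe set had the opposite sign and was not called: Mat2a (0.55 and -0.06), Raph1 (0.53 and -0.04), Tk1 (0.34 and -0.08), Rab1b (0.26 and -0.01) and Glyctk (-0.35 and 0.03).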

How the data were processed

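Liver RNA was measured on 36 Affymetrix rat arrays, 1 per sample, in 6 groups of 6. The deposited values are on a log2 scale; the authors used RMA in affy, per the submitters' processing notes, with versions not given in the sources used here. RMA puts all arrays on 1 common distribution, which each level refers to, and arrays have no read depth: the number of arrays limits precision. Of 31099 probe sets, 57 controls were left out and 31042 tested with no filter; 20826 were assigned to a single gene, 436 to several and 9780 treated as unnamed, and 20758 matched the RefSeq table (GRCr8). A gene was represented by its probe set of highest mean over the 12 arrays. The main test was limma 3.58.1 (R 4.3.3; lmFit and eBayes, two-sided, 10 residual and 5.20 prior degrees of freedom) with Benjamini-Hochberg adjustment over all 31042 probe sets and a threshold of 0.05. Differences of steps came from 1 model of 24 arrays. The fit was tested on simulated data. The series names R/maanova for its own tests, and the ordinary linear model test stood in for it as an alternative.

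The members, the 38 gene lists and the alternatives were chosen with earlier results of these data known. The rule named a panel of 22 drug metabolism, thyroid, lipid and amino acid genes, the 15 largest rises and 15 largest falls among called genes with separate ranges, up to 4 called members of each list (or 2 uncalled), and the 5 largest called differences of steps each way. Its part on genes of most similar pattern is not printed, because the 12 arrays fall into 2 separate groups. Alternatives were a replicate block, models of 36 or 30 arrays, quantile normalization again, median centring, brighter probe sets, the ordinary test, trend and robust moderation, array weights, a minimum change of 1.5-fold, averaging over the probe sets of a gene, and leaving out each array in turn.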

Additional observations from a re-analysis of the deposited data

Results flagged for a closer look

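Among 200 sets of 6 arrays examined (100 named genes at 2 doses), 16 held 1 array far from the other 5 by Dixon's test, and chance gives about 1 in 20. Of these, 4 were 4.85 mg/kg replicate 6, which was lowest for Mcm6 (4.52), Mcm4 (6.56), Kdr (9.46) and Car1 (4.23). Replicate 4 of that dose was highest for Gstt3 (11.15) and Akr7a3 (11.93), replicate 5 lowest for Cyp3a9 (8.75) and replicate 1 lowest for Cyp7a1 (10.54). At 48.5 mg/kg, replicate 5 was lowest for Slc22a8 (10.28), Insig1 (9.49), Abcg8 (4.95) and Abcg5 (7.28) and highest for Psma3 (8.71). Replicate 3 was lowest for Usp18 (5.83) and Gzma (5.17), and replicate 4 for Rgs5 (5.69).

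The test of the difference between dose steps picked out 6 named genes. Abcc3 changed more from 4.85 to 48.5 mg/kg than in the step below (1.58). Against the step above, the value was higher for Mblac1 (0.71) and lower for Ehhadh (-0.98), Ttc39a (-1.37), Hmox1 (-0.91) and Slc48a1 (-0.61). Their causes were not tested.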

How the results depend on the processing

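The 171 calls of 48.5 against 4.85 mg/kg became 367 in a model of all 36 arrays, 348 in one of 30 treated arrays, 273 with trend and robust moderation, 285 with brighter probe sets only, 54 with the ordinary test and 62 with a minimum of 1.5-fold, and 86 to 199 with 1 array left out. Quantile normalization again gave 182, median centring 180 and array weights 227. No setting called a probe set of the 171 in the opposite direction. Genes called numbered 112, and 209 when probe sets of a gene were averaged. The 1 call against the step below became 2 with 36 arrays, 0 with the ordinary test and 0 to 3 with 1 array left out; the 7 against the step above became 16 with 36 arrays, 16 with brighter probe sets, 13 with the ordinary test and 0 to 14 with 1 array left out. The 3920 calls of 485 mg/kg against vehicle ranged over 3269 to 4665. Same-numbered arrays did not deviate together over all probe sets (correlations of -0.0858 to 0.0974, none best with its own number). Such a correlation cannot show whether the numbers pair the samples for a part of the genes, and this was not tested. With a replicate block, Dbp (limma adjusted p = 0.0358 against 0.314), Trib3 (0.0271 against 0.200) and Cyp2c12 (0.0394 against 0.257) passed. A replicate block gave 180 calls for the step, 116 of them among the 171, with 2 and 13 for the differences of steps and 3630 for 485 mg/kg. Of 52 named calls 16 passed in every setting; the ordinary test lost 35, the block 12, and the models of 36 and of 30 arrays 7 each. The cause of these shifts was not tested. Values near 0 changed sign: the 3' to 5' differences of beta-actin (-0.035 to 0.039 with 1 array left out) and hexokinase (-0.051 to 0.045), against -0.059 to -0.020 for GAPDH, and the changes of Dio1 (-0.080 to 0.0012 with 1 array left out, above 0 without 48.5 mg/kg replicate 6), Insig1 (-0.43 to 0.022, above 0 without 48.5 mg/kg replicate 5), Hnf4a (-0.0078 with the mean of its probe sets) and Slc48a1 (0.0087 with median centring, -0.042 to 0.028 with 1 array left out). The median change of all probe sets was -0.0077, and -0.0043 and 0.003 under quantile normalization and median centring. Signal over background was not called, which limits values near or under the array medians.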

Other observations

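The 6 called rises given first here stand on no list and were picked out after their values were seen. Mettl1, a tRNA methyltransferase, rose by 0.46 ± 0.09 (limma adjusted p = 0.0407), Trub1, a pseudouridine synthase, by 0.42 ± 0.09 (adjusted p = 0.0486) and Nip7, of ribosome assembly, by 0.44 ± 0.09 (adjusted p = 0.0315). Nip7 had a mean of 7.96 in vehicle, 7.55 at 4.85, 7.99 at 48.5 and 7.90 at 485 mg/kg. Neither Nip7 nor Trub1 was called between vehicle and 485 mg/kg. Trub1 read 4.93 to 5.37 at 4.85 mg/kg, near or under the array medians, so its change is approximate. Of genes known from DNA repair, Parp1 rose by 0.55 ± 0.07 (adjusted p = 0.000733), Polb by 0.42 ± 0.07 (adjusted p = 0.0150) and Fen1 by 0.44 ± 0.09 (adjusted p = 0.0315). Parp1 read 8.73 to 9.04 at 4.85 mg/kg and 9.25 to 9.47 at 48.5 mg/kg, with separate ranges. Since no list of these genes was tested, no theme is named from them.

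Cdh17, a cadherin, stood at 2.20 ± 0.50 and did not pass (limma adjusted p = 0.0671). It was the gene lowest on 4.85 mg/kg replicate 6 relative to the other 5 arrays of that group, with a deviation of -2.434, and the part of that array in its value was not tested.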
